A study of Mus musculus with 12 samples.

Results

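Transcripts of platelets and of megakaryocytes, the bone marrow cells that shed platelets, were followed in isolated mouse glomeruli. The 8 genes were Pf4, Ppbp, Itga2b, Itgb3, Gp9, Gp5, Clec1b and Treml1, out of 18201 genes represented on the arrays. A gene was taken where the platform annotation gave a probe set its symbol and no other, and among several such probe sets the one with the highest mean log2 signal over all 12 arrays was used. All 8 genes had such a probe set, and Itgb3 had 2.

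Platelets have no nucleus and carry RNA that they received from the megakaryocyte. Pf4 and Ppbp encode chemokines stored in the alpha granules and released on activation. Itga2b and Itgb3 encode the subunits of the fibrinogen receptor, Gp9 and Gp5 encode parts of the von Willebrand factor receptor complex, Clec1b encodes the podoplanin receptor CLEC-2, and Treml1 encodes a receptor kept in the granule membrane until activation. In antibody-mediated glomerulonephritis platelets are known to gather in the glomerular capillaries. Itgb3 also pairs with the integrin alpha v chain on endothelium and other cells, so it is the least restricted of these genes.

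The study compared glomeruli of female mice aged 8 to 10 weeks of 2 inbred strains, 129S2SvPAs and C57BL6J. Diseased mice had anti-GBM glomerulonephritis (anti-GBM GN), which is set off by a serum against the glomerular basement membrane. Per the labels, nephrotoxic serum was given on days 0, 1 and 2, kidneys were taken on day 4, and glomeruli were collected with sieves of 100 and 45 µm. The 4 groups were 129S2SvPAs mice with anti-GBM GN, 129S2SvPAs controls, C57BL6J mice with anti-GBM GN and C57BL6J controls, with 3 mice and 3 Affymetrix arrays in each. What the control mice were given is not stated in the sources used here, and no engineered allele is named for any group. Whole glomeruli were measured, so fewer cells of a type and less RNA per cell cannot be told apart.

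Signals are on the log2 scale and ran from 1.12 to 15.02, the medians of the arrays from 2.99 to 3.06, and the number of arrays limits the precision. Many probe sets lay on a flat floor near the median, where a fold change is understated. The test was limma, a moderated linear model, run on genes with 3 or more arrays above the table median of 3.03. This left 11921 genes and 6 of the 8 platelet genes, and "called" means a Benjamini-Hochberg adjusted p under 0.05 over all of them. All 8 podocyte markers on the array exceeded the table median on every array, and so did all 10 markers of the neighbouring proximal tubule. Passing this low threshold does not show enrichment of glomeruli. Summed linear signals on single arrays ran from 1900 to 8680 for the podocyte markers and from 33500 to 68900 for the tubule markers. The first replicate of 129S2SvPAs anti-GBM GN was the least like its group, with Pearson's r across genes of 0.974 and 0.973 to the other arrays of that group, against 0.994 between those arrays.

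The promoters of 4 of these genes are shown because Pf4 and Ppbp moved with disease, Gp9 moved with disease in C57BL6J, and Itga2b was not called. The 250 bases before the start are from RefSeq on GRCm38.p6, written 5′ to 3′ on the gene's strand. Capitals mark GATAA, the core of the motif of GATA factors, and GGAAG, a core of the motif of ETS factors, on either strand (TTATC and CTTCC on the other strand).
Pf4 chr5:90772185-90772434, plus strand: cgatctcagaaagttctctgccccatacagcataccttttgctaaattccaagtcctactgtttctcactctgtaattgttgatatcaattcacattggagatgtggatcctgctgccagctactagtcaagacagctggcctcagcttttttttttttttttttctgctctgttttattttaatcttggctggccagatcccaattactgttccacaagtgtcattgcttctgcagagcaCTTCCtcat
Ppbp chr5:90768268-90768517, plus strand: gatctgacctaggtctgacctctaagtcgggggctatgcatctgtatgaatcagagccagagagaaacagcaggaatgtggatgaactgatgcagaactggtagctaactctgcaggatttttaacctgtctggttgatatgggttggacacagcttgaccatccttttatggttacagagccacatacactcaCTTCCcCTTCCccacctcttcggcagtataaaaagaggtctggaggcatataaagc
Gp9 chr6:87777820-87778069, plus strand: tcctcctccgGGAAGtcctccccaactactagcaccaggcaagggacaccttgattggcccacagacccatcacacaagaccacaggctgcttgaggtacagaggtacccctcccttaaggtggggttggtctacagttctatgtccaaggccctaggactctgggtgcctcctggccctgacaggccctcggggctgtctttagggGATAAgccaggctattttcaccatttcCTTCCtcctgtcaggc
Itga2b chr11:102469884-102470133, minus strand: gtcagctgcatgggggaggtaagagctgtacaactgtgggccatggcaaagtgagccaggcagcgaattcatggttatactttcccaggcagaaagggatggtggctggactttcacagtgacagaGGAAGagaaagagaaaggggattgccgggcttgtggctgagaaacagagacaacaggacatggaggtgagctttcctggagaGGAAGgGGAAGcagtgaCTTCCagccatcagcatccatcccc

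Pf4 and Ppbp are neighbours on chromosome 5 on the same strand, with 3917 bases between their starts, inside a cluster of chemokine genes that also holds Cxcl5 and Cxcl3. The Pf4 window held 1 GGAAG match, beginning 9 bases before the start, and the Ppbp window held 2, beginning 56 and 50 bases before it. Gp9 had both motifs, with GATAA beginning 43 bases before the start, while Itga2b had 4 GGAAG matches and no GATAA. Of the 7 platelet genes with a window in the table, GGAAG was present in 6 and GATAA in 3, namely Gp9, Gp5 and Clec1b. Among 32851 windows of the same length, 64.1% held GGAAG, 22.6% held GATAA and 13.2% held both. A match is a description of the letters and not a site.

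The first question was whether platelet transcripts differed between mice with anti-GBM GN and controls. Pf4, Ppbp and Itgb3 were higher with anti-GBM GN in both strains, by 4.73-fold to 29.0-fold, and no array with disease overlapped a control array for any of them. Such separation in both strains was seen in 7.88% of all genes tested. Itgb3 and, but for 1 control array, Ppbp exceeded the table median only with disease, so both entered the tests through those arrays. Gp9 was called higher in C57BL6J, the group through which it entered the tests, while Clec1b passed only as an average over the strains. Itga2b did not pass in either strain, and Gp5 and Treml1 stayed too close to the floor to be tested.

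The chemokine Pf4, platelet factor 4, had log2 signals of 7.52, 7.94 and 7.72 on the 129S2SvPAs anti-GBM GN arrays, against 2.86, 2.86 and 2.88 on the 129S2SvPAs control arrays. In C57BL6J the signals were 8.95, 8.73 and 7.68 with anti-GBM GN and 5.04, 4.09 and 3.30 in controls. The 129S2SvPAs controls lay below the table median on every array, whereas the C57BL6J controls were spread above it. The lowest diseased array exceeded the highest control array by 4.64 in 129S2SvPAs and by 2.64 in C57BL6J.

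The Pf4 difference was 4.86 in 129S2SvPAs (29.0-fold, SE 0.40, adjusted p = 3.45e-05 in limma). These controls lay near the floor, and with values below the table median set to that median the difference was 4.70 (25.9-fold). In C57BL6J, where all control arrays exceeded the median, it was 4.31 (19.8-fold, SE 0.40, adjusted p = 0.000141 in limma). Averaged over both strains it was 24.0-fold, with adjusted p = 2.8e-06 in limma. The 2 responses differed by 0.55 (95% interval -0.71 to 1.81, adjusted p = 0.822 in limma), an interval that allows a larger response in either strain.

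Ppbp encodes pro-platelet basic protein, the precursor from which the neutrophil chemoattractant CXCL7 (NAP-2) is cut. Its log2 signals were 3.39, 4.98 and 4.41 in 129S2SvPAs anti-GBM GN, against 2.39, 1.82 and 1.84 in 129S2SvPAs controls. In C57BL6J they were 8.27, 8.13 and 7.06 with anti-GBM GN and 3.62, 2.95 and 2.57 in controls. Diseased arrays lay above controls in each strain, and every C57BL6J anti-GBM GN array lay above every 129S2SvPAs anti-GBM GN array.

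Ppbp rose 4.73-fold in 129S2SvPAs (log2 difference 2.24, SE 0.44, adjusted p = 0.0046 in limma). In C57BL6J it rose 27.3-fold (4.77, SE 0.44, adjusted p = 0.000118 in limma). With values below the table median set to that median, the 129S2SvPAs rise was 1.23 and was no longer called (adjusted p = 0.0527 in limma). The C57BL6J rise was then 24.1-fold, since the control arrays at 2.95 and 2.57 also lay below that median.

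Itgb3, the beta 3 chain of the fibrinogen receptor, had log2 signals of 5.86, 5.12 and 3.60 in 129S2SvPAs anti-GBM GN, against 2.33, 2.39 and 2.36 in 129S2SvPAs controls. In C57BL6J the signals were 6.70, 7.15 and 5.83 with anti-GBM GN and 2.54, 2.66 and 2.55 in controls. Controls of both strains lay flat below the table median, and the 129S2SvPAs diseased arrays were the most scattered group of any platelet gene (SD 1.15, n = 3). The rise was 5.66-fold in 129S2SvPAs (2.50, SE 0.48, adjusted p = 0.00419 in limma) and 15.7-fold in C57BL6J (3.98, SE 0.48, adjusted p = 0.000651 in limma). With values below the table median set to that median the rises were 3.56-fold in 129S2SvPAs and 11.6-fold in C57BL6J. The second probe set of Itgb3 stayed between 2.23 and 2.41 on every array, so the probe sets of this gene disagreed, and the values here rest on the brighter one.

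Itga2b, the alpha IIb chain that pairs with Itgb3 on platelets, showed no comparable difference. Its log2 signals were 4.64, 4.54 and 4.54 in 129S2SvPAs anti-GBM GN and 4.00, 4.19 and 4.53 in 129S2SvPAs controls. In C57BL6J they were 4.55, 4.52 and 4.50 with anti-GBM GN and 4.52, 4.52 and 4.51 in controls. On 9 of 12 arrays the value lay within 0.03 of the median of 4.52, the lower values were in 129S2SvPAs controls, and the 129S2SvPAs groups were 0.01 apart without overlap. The difference was 0.33 in 129S2SvPAs (SE 0.13, 95% interval 0.06 to 0.61, adjusted p = 0.0887 in limma) and 0.01 in C57BL6J (SE 0.13, 95% interval -0.27 to 0.29, adjusted p = 0.989 in limma). The upper bounds lay below the lower bounds of the Itgb3 rises, which were 1.44 in 129S2SvPAs and 2.92 in C57BL6J. Whether so constant a probe set could report a rise was not tested, so these bounds describe its signal and not the transcript.

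**Figure D1:**
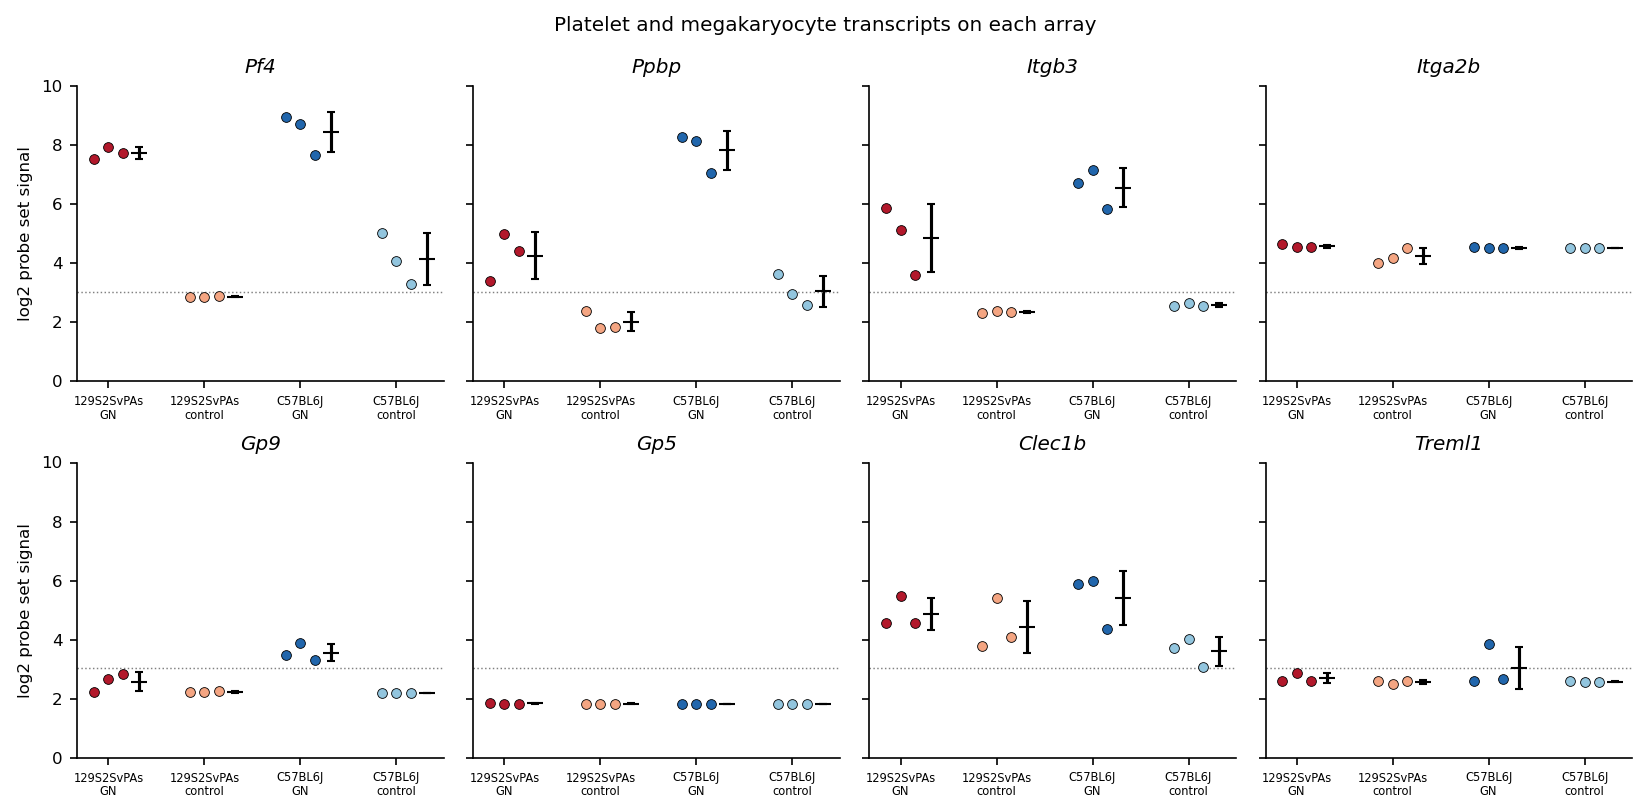
Log2 probe set signal of the 8 platelet and megakaryocyte genes on each of the 12 arrays, with 1 panel per gene. Points are arrays in replicate order, the horizontal bar with whiskers is the group mean ± SD (n = 3), and the dotted line is the table median of 3.03. Pf4, Ppbp and Itgb3 separate anti-GBM GN (GN) from control arrays in both strains, Gp9 and Clec1b do so in C57BL6J, and Gp5 stays within 1.82 to 1.86.

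Gp9, glycoprotein IX of the von Willebrand factor receptor, had log2 signals of 2.22, 2.68 and 2.85 in 129S2SvPAs anti-GBM GN, against 2.22, 2.22 and 2.28 in 129S2SvPAs controls. In C57BL6J the signals were 3.47, 3.89 and 3.32 with anti-GBM GN, against 2.21, 2.20 and 2.19 in controls. Only those 3 C57BL6J anti-GBM GN arrays exceeded the table median, so the gene entered the tests through the group in which it was high. Its C57BL6J rise was 1.36 (2.57-fold, SE 0.17, adjusted p = 0.000989 in limma), and in 129S2SvPAs the difference was 0.34 (SE 0.17, adjusted p = 0.202 in limma). Without replicate 1 of 129S2SvPAs anti-GBM GN, which lay at the control level, the 129S2SvPAs difference was 0.52 and was called (adjusted p = 0.0347 in limma). With values below the table median set to that median the C57BL6J rise was 0.53 (adjusted p = 0.0339 in limma), and the average over both strains was no longer called (adjusted p = 0.0549 in limma).

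Clec1b, which binds podoplanin, had log2 signals of 4.57, 5.49 and 4.56 in 129S2SvPAs anti-GBM GN and of 3.78, 5.42 and 4.08 in 129S2SvPAs controls. C57BL6J glomeruli had 5.89, 5.98 and 4.37 with anti-GBM GN and 3.71, 4.03 and 3.08 in controls. Groups overlapped in 129S2SvPAs, where 1 control array was nearly as high as the highest diseased array, and in C57BL6J the gap was 0.34. The differences were 0.45 in 129S2SvPAs (SE 0.52, adjusted p = 0.611 in limma) and 1.81 in C57BL6J (SE 0.52, adjusted p = 0.0631 in limma). Same-numbered C57BL6J arrays deviated together, and with the replicate block the C57BL6J difference was called (adjusted p = 0.0104 in limma). The average over both strains was 1.13 (SE 0.37, adjusted p = 0.0426 in limma), a call that was lost in 9 of 22 alternatives, most of them leaving out 1 array (adjusted p between 0.00656 and 0.106 in limma).

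Gp5, glycoprotein V, lay between 1.82 and 1.86 on all 12 arrays. Treml1 had log2 signals of 2.60, 2.89 and 2.61 in 129S2SvPAs anti-GBM GN and 2.60, 2.50 and 2.60 in 129S2SvPAs controls. C57BL6J glomeruli had 2.59, 3.85 and 2.67 with anti-GBM GN and 2.59, 2.58 and 2.58 in controls. Replicate 2 of C57BL6J anti-GBM GN was the only array on which Treml1 exceeded the table median. Gp5 exceeded that median on none.

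Counted over the 8 genes, 3 were called higher in 129S2SvPAs, where 10.6% of all genes tested were called higher. In C57BL6J 4 were called higher, where 4.78% of all genes tested were, and in the average over both strains 5 were, against 13% of all genes tested. Of the genes called, Itgb3 exceeded the table median only on anti-GBM GN arrays, and Ppbp on those and 1 C57BL6J control array. Both therefore entered the tests through the groups in which they were high. Gp9, called in C57BL6J and in the average, entered through the C57BL6J anti-GBM GN arrays alone. None was called lower, against 9.76% of all genes tested in 129S2SvPAs, 2.31% in C57BL6J and 13.6% in the average.

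**Figure D2:**
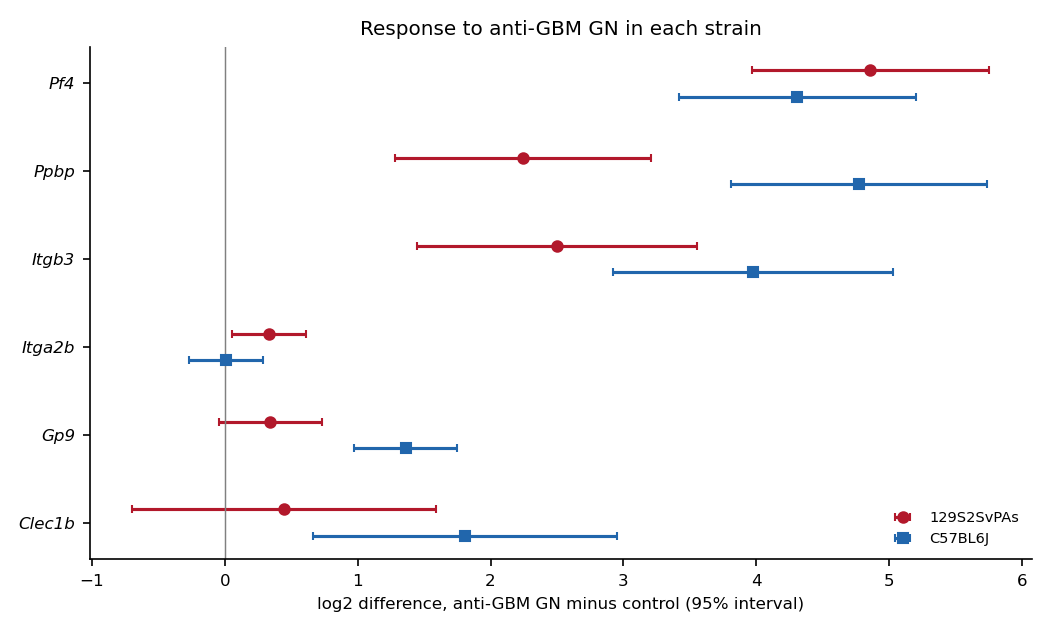
Log2 difference in signal, anti-GBM GN minus control, for the 6 platelet genes tested, in 129S2SvPAs (circles) and C57BL6J (squares). Whiskers are 95% intervals from limma, in which Gp9 was tested because of its C57BL6J anti-GBM GN arrays alone. Intervals of Pf4, Ppbp and Itgb3 lie above 0 in both strains, and those of Ppbp (upper bound 3.21 in 129S2SvPAs, lower bound 3.81 in C57BL6J) and of Gp9 (0.73 and 0.97) do not overlap between the strains, although the difference between the responses was called for neither (adjusted p = 0.135 in limma).

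The second question was how far genetic background set these levels. With anti-GBM GN, Ppbp and Gp9 were lower in 129S2SvPAs than in C57BL6J, whereas the Pf4 signals of the strains overlapped. Gp9 entered the tests only through the 3 C57BL6J anti-GBM GN arrays, the higher side of this comparison, and with values below the table median set to that median its difference was -0.53. All 3 diseased 129S2SvPAs arrays lay below all 3 diseased C57BL6J arrays for both genes, as they did in 12.6% of all genes tested. Ppbp was 3.56 lower on the log2 scale (difference -3.56, SE 0.44, 95% interval -4.52 to -2.60, adjusted p = 0.000535 in limma), and Gp9 differed by -0.98 (SE 0.17, adjusted p = 0.00605 in limma). For Pf4 the difference was -0.73 (95% interval -1.62 to 0.17, adjusted p = 0.335 in limma). Of the 8 genes these 2 were called lower, where 4.89% of all genes tested were called lower.

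Itgb3 differed by -1.70 between diseased 129S2SvPAs and C57BL6J glomeruli (SE 0.48, adjusted p = 0.0541 in limma), with 1 array of 129S2SvPAs, at 5.86, inside the C57BL6J range. Without replicate 1 of 129S2SvPAs anti-GBM GN, or without replicate 3 of C57BL6J anti-GBM GN, the difference was called. Over all alternatives its adjusted p ran between 0.00433 and 0.199 in limma. Clec1b differed by -0.54 (adjusted p = 0.589) and Itga2b by 0.05 (adjusted p = 0.85 in limma). The Gp9 call was lost when the fit held no other groups, with a highest adjusted p of 0.0656 in limma.

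Pf4 and Ppbp, neighbours on the chromosome and stored in the same granule, were set side by side, a pair chosen with these values known. The Ppbp signal minus the Pf4 signal was -4.13, -2.96 and -3.31 in 129S2SvPAs anti-GBM GN, against -0.68, -0.60 and -0.62 in C57BL6J anti-GBM GN. A probe set's brightness is its own, so only the change of this quantity between arrays can be read. It differed by -2.83 between the strains without overlap, and this difference is given without a test. In controls the quantity was -0.47, -1.04 and -1.04 in 129S2SvPAs and -1.42, -1.14 and -0.73 in C57BL6J, where most signals were near the floor.

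**Figure D3:**
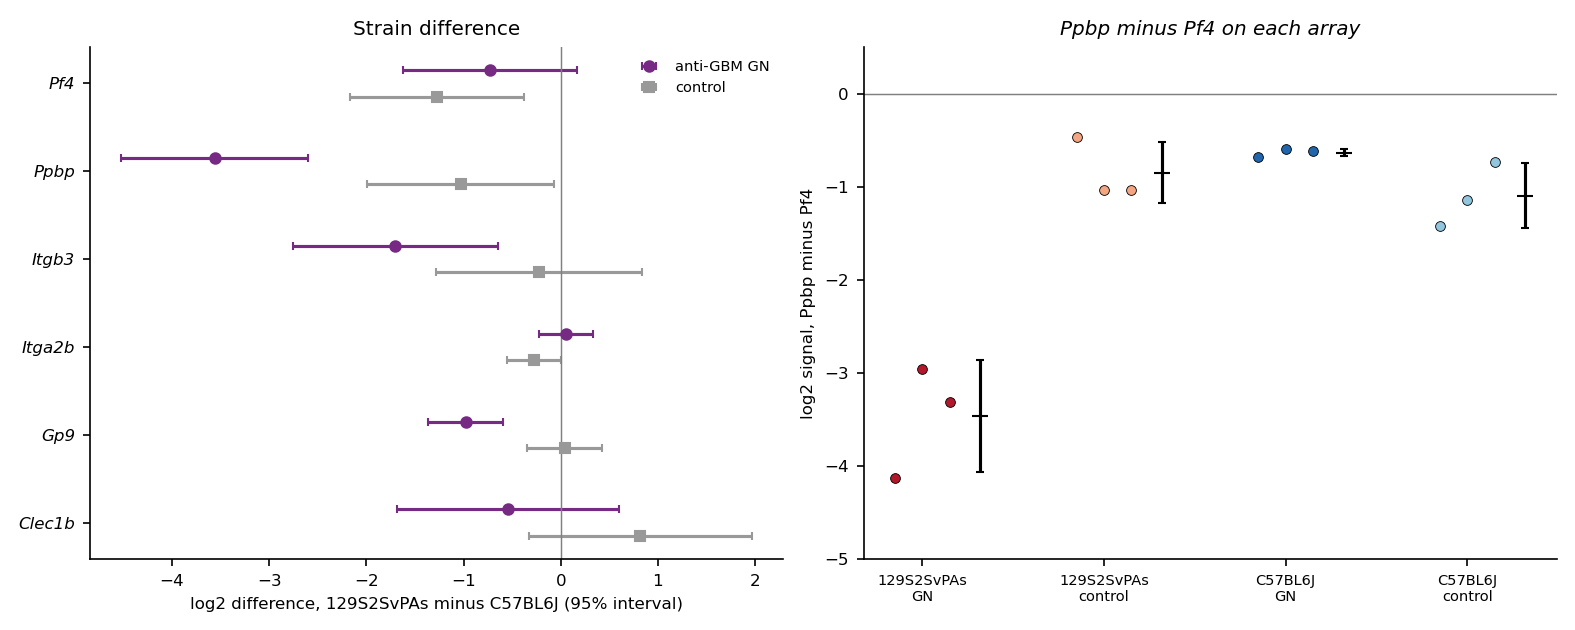
Left, log2 difference in signal, 129S2SvPAs minus C57BL6J, for the 6 platelet genes tested, in anti-GBM GN (circles) and controls (squares), with 95% intervals from limma. Right, Ppbp minus Pf4 log2 signal on each array with the group mean ± SD (n = 3). Ppbp in anti-GBM GN lies farthest from 0 at -3.56, and the 129S2SvPAs anti-GBM GN arrays lie below all others in the right panel.

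In controls limma called none of the 8 genes between the strains, where 8.43% of all genes tested were called. At an unadjusted p under 0.05 there were 2, against 22.3% of all genes tested. These were Pf4, at -1.28 (95% interval -2.17 to -0.38, adjusted p = 0.0829), and Ppbp, at -1.03 (adjusted p = 0.191), both lower in 129S2SvPAs. For each of these genes all 3 129S2SvPAs controls lay below all 3 C57BL6J controls, as they did in 14.3% of all genes tested. Without replicate 3 of the C57BL6J controls Pf4 was called (-1.70, adjusted p = 0.027 in limma).

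The test of the difference between the responses (129S2SvPAs minus C57BL6J) called none of the 8 genes in limma, against 0.562% of all genes tested, and 2 passed an unadjusted p of 0.05, against 10.9% of all genes tested. The Ppbp rise was smaller in 129S2SvPAs, with a difference between the responses of -2.53 (SE 0.62, 95% interval -3.89 to -1.17, adjusted p = 0.135), and Gp9 stood at -1.02 (SE 0.25, adjusted p = 0.135). Gp9 entered the tests only through the C57BL6J anti-GBM GN arrays, which are part of this comparison. With values below the table median set to that median, Gp9 was at -0.53 (adjusted p = 0.303 in limma). Ppbp was then at -3.36 and was called (adjusted p = 0.0331 in limma). Itgb3 and Clec1b were at -1.48 (adjusted p = 0.465) and -1.36 (adjusted p = 0.559), and Itga2b at 0.33 (adjusted p = 0.566). With weights for each array, of which replicate 1 of 129S2SvPAs anti-GBM GN received the lowest (0.207), Ppbp and Gp9 were called, and Ppbp was then at -2.31 (adjusted p = 0.0338 in limma). Over all alternatives the Ppbp difference had an adjusted p between 0.0331 and 0.296.

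The order of the replicates within a group was partly shared between genes. In C57BL6J anti-GBM GN replicate 3 was the lowest array for 6 of the 8 genes, and in C57BL6J controls replicate 3 was the lowest for 5. Some of these orders rest on nearly flat signals, as in C57BL6J controls for Itga2b (4.52, 4.52 and 4.51) and Gp9 (2.21, 2.20 and 2.19). How often all genes tested gave such an order was not counted. In 129S2SvPAs anti-GBM GN replicate 1 was the lowest for Pf4, Ppbp, Gp9 and Treml1 but the highest for Itgb3. S100a8, a calcium-binding protein of neutrophils, had 7.57, 6.77 and 5.82 in C57BL6J anti-GBM GN and 7.61, 6.82 and 5.84 in C57BL6J controls, an order of arrays shared with Pf4 in both groups. Between these groups S100a8 averaged 6.72 ± 0.88 and 6.76 ± 0.89 (SD, n = 3 each), a difference of -0.04 (SE 0.50, adjusted p = 0.982 in limma). In 129S2SvPAs the difference with anti-GBM GN was 1.02 for S100a8 (adjusted p = 0.182 in limma) and 1.64 for its partner S100a9 (adjusted p = 0.0597 in limma).

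Platelet genes beyond the 8 were read from 5 lists. Of 19 receptors and adhesion genes, 17 were on the array and 11 were tested. In 129S2SvPAs 5 were called higher and 1 lower (median difference 0.87, against 0.00 over all genes tested). In C57BL6J 3 were called higher and none lower (median 0.91, against -0.03 over all genes tested). Of all genes tested 10.6% were called higher and 9.76% lower in 129S2SvPAs, and 4.78% and 2.31% in C57BL6J. The thrombin receptors F2r and F2rl3 were higher in both strains, F2r by 2.75 in 129S2SvPAs (SE 0.23, adjusted p = 3.76e-05 in limma) and by 1.63 in C57BL6J (SE 0.23, adjusted p = 0.00195 in limma). F2rl3, which encodes PAR4, was higher by 1.46 in 129S2SvPAs (SE 0.42) and by 1.81 in C57BL6J (SE 0.42). It exceeded the table median on every anti-GBM GN array, but among controls only on the C57BL6J array at 3.17. F2rl3 therefore entered the tests through the groups in which it was high. F2r is not the thrombin receptor of mouse platelets, which use F2rl2 and F2rl3, and it is known in endothelium and mesangium.

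Gp1bb, a partner of Gp9 and Gp5 in the von Willebrand factor receptor, had log2 signals of 4.19, 4.27 and 3.65 in 129S2SvPAs anti-GBM GN and 3.08, 3.56 and 2.85 in 129S2SvPAs controls. The C57BL6J signals were 4.56, 4.66 and 3.66 with anti-GBM GN and 3.68, 3.64 and 2.83 in controls. The differences were 0.87 in 129S2SvPAs (adjusted p = 0.0813) and 0.91 in C57BL6J (adjusted p = 0.128), and the average over both strains passed at 0.89 (SE 0.23, adjusted p = 0.0147 in limma). The collagen receptor Gp6 had group means of 2.35 to 2.40 and was not tested. Gp1ba and Thpo were not analysed here.

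Of 22 genes of granule cargo and granule formation, 18 were tested. In 129S2SvPAs 7 were called higher (median 0.07, against 0.00 over all genes tested, of which 10.6% were called higher). In C57BL6J 5 were (median 0.23, against -0.03 over all genes tested, of which 4.78% were called higher), and none was lower in either strain. Stx11, a syntaxin needed for granule release in platelets, had 5.30, 5.66 and 5.32 in 129S2SvPAs anti-GBM GN, against 3.37, 3.63 and 3.52 in 129S2SvPAs controls. In C57BL6J it had 5.54, 5.81 and 5.39 with anti-GBM GN, against 3.87, 3.43 and 3.15 in controls. The Stx11 rise was 1.92 in 129S2SvPAs (adjusted p = 8.25e-05 in limma) and 2.10 in C57BL6J (adjusted p = 0.000118 in limma). Sparc and the growth factors Pdgfa and Pdgfb, which glomerular cells also make, were called higher in both strains. Von Willebrand factor (Vwf), the factor XIII subunit F13a1 and the granule protein Nbeal2 were not called, with differences of 0.15, 0.01 and -0.27 in 129S2SvPAs and 0.34, 0.74 and 0.07 in C57BL6J.

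Of 28 genes of the platelet cytoskeleton and signalling, 19 were tested. In 129S2SvPAs 5 were called higher (median 0.52, against 0.00 over all genes tested, of which 10.6% were called higher). In C57BL6J 8 were (median 0.67, against -0.03 over all genes tested, of which 4.78% were called higher). Gp1bb and F2rl3 were on both this list and the receptor list. Rgs18, a regulator of G protein signalling abundant in platelets, had 4.30, 5.33 and 4.96 in 129S2SvPAs anti-GBM GN, against 3.19, 2.78 and 3.20 in 129S2SvPAs controls. The C57BL6J signals were 5.76, 4.77 and 4.17 with anti-GBM GN, against 3.21, 3.24 and 2.34 in controls. Diseased arrays were above controls in both strains, by 1.81 in 129S2SvPAs (SE 0.40, adjusted p = 0.00911 in limma) and 1.97 in C57BL6J (SE 0.40, adjusted p = 0.0138 in limma).

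Tubb1, the beta 1 tubulin of the platelet marginal band, had 3.24, 3.32 and 3.25 in 129S2SvPAs anti-GBM GN and 3.24, 3.22 and 3.24 in 129S2SvPAs controls. In C57BL6J it had 4.98, 4.72 and 3.64 with anti-GBM GN and 3.11, 3.23 and 3.06 in controls. The difference was 0.04 in 129S2SvPAs (adjusted p = 0.958) and 1.31 in C57BL6J (adjusted p = 0.0135 in limma). Between diseased strains Tubb1 was lower in 129S2SvPAs by 1.18 (difference -1.18, adjusted p = 0.0205 in limma), and so was Plek, pleckstrin of platelets and leukocytes (-1.65, adjusted p = 0.0396 in limma). The difference between the responses was -1.28 for Tubb1 (adjusted p = 0.211) and -1.39 for Plek (adjusted p = 0.446 in limma), so neither was shown to respond differently between the strains.

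**Figure D4:**
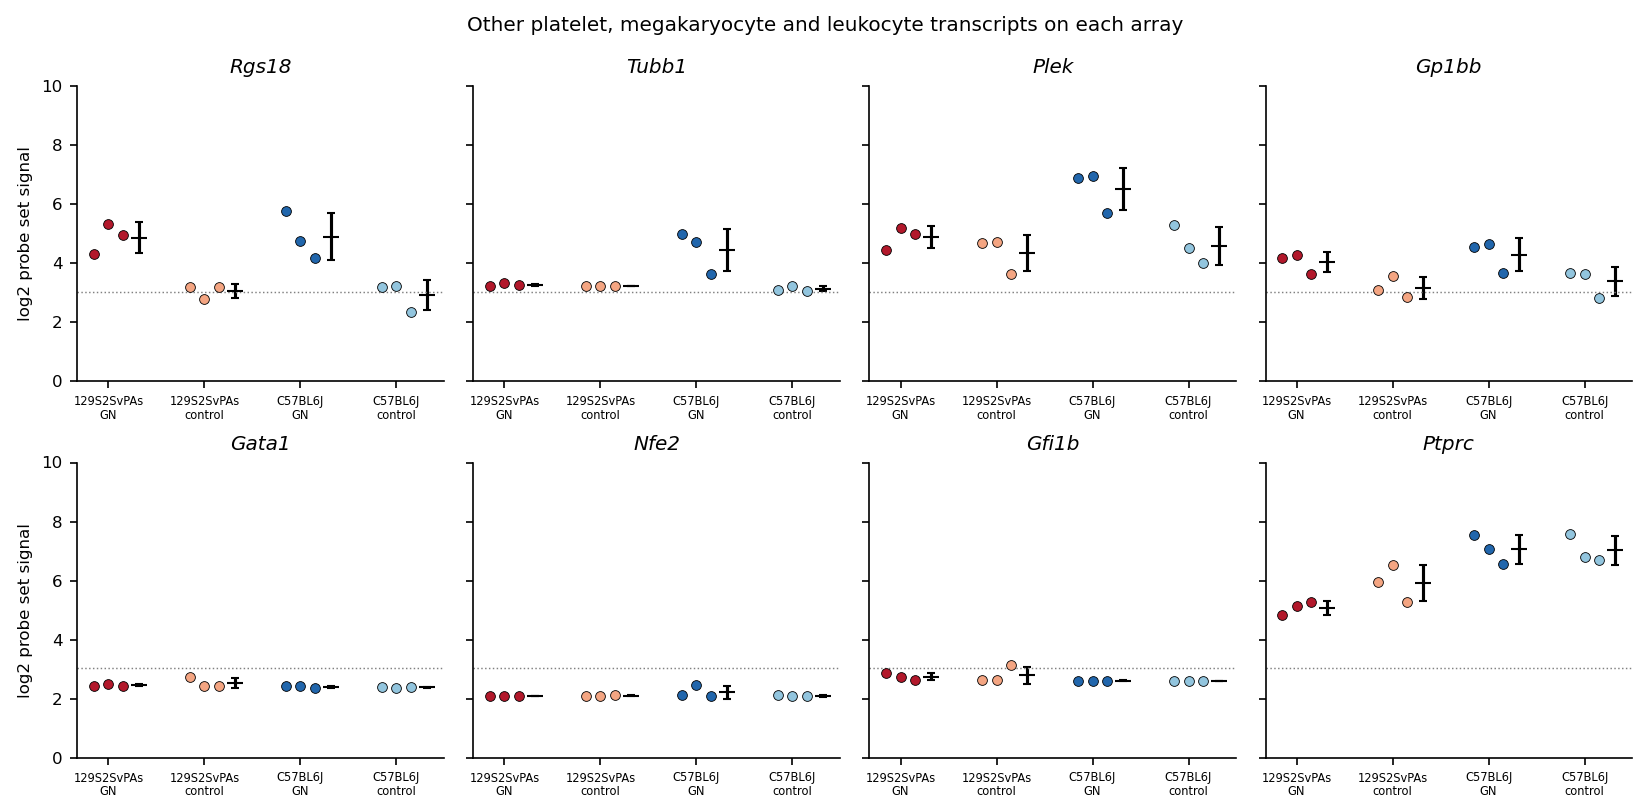
Log2 probe set signal of 4 further platelet genes (Rgs18, Tubb1, Plek, Gp1bb), 3 megakaryocyte transcription factors (Gata1, Nfe2, Gfi1b) and the leukocyte gene Ptprc on each array. Points are arrays in replicate order, bars with whiskers are means ± SD (n = 3), and the dotted line is the table median of 3.03. Rgs18 is higher with anti-GBM GN (GN) in both strains, Tubb1 in C57BL6J, and the transcription factors lie below or near the median on all arrays.

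Of 20 transcription and growth factors of megakaryocytes, 16 were on the array and 11 were tested. In 129S2SvPAs Fli1 and Srf were called higher and the chemokine Cxcl12 lower (median 0.16), where 10.6% of all genes tested were called higher and 9.76% lower. In C57BL6J limma called none, while 5 of 11 passed an unadjusted p of 0.05 (median 0.27), against 21.2% of all genes tested. Gata1, the master regulator of the lineage, had group means of 2.39 to 2.54, Nfe2, needed for platelet release, of 2.10 to 2.22, and Gfi1b of 2.61 to 2.80, all below the median of the table, and none of these was tested. Fli1, an ETS factor also expressed in endothelium, was higher by 1.04 in 129S2SvPAs (SE 0.28, adjusted p = 0.0241 in limma), with 0.98 in C57BL6J (SE 0.28, adjusted p = 0.0645).

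Ligands and receptors of the 8 proteins formed the last list, with 10 of 15 tested. In 129S2SvPAs 7 were called higher (median 1.36) and in C57BL6J 3 were (median 0.88), with none lower. Of all genes tested 10.6% were called higher in 129S2SvPAs and 4.78% in C57BL6J, with medians of 0.00 and -0.03. The fibrinogen chains Fga, Fgb and Fgg, ligands of the Itga2b and Itgb3 receptor, were called higher in both strains. Fga was higher by 3.09 in 129S2SvPAs (SE 0.44, adjusted p = 0.000694 in limma) and by 3.17 in C57BL6J (SE 0.44, adjusted p = 0.00155 in limma). Pdpn, podoplanin of podocytes and the ligand of Clec1b, had 7.67, 7.50 and 7.70 in 129S2SvPAs anti-GBM GN, against 6.12, 5.96 and 6.14 in 129S2SvPAs controls. C57BL6J glomeruli had 9.03, 8.20 and 8.69 with anti-GBM GN, against 8.05, 8.28 and 7.67 in controls. Its difference was 1.55 in 129S2SvPAs (adjusted p = 0.000492 in limma) and 0.64 in C57BL6J (adjusted p = 0.0979), and its level was lower in 129S2SvPAs than in C57BL6J, by 1.02 in disease and by 1.93 in controls on the log2 scale. Itgav, the other partner of Itgb3, was higher by 0.44 in 129S2SvPAs (adjusted p = 0.029 in limma) and by 0.39 in C57BL6J (adjusted p = 0.0914). None of the tested genes of the 5 lists was called in the difference between the responses in limma, where 0.562% of all genes tested were. At an unadjusted p under 0.05 there were 3, 4, 2, 1 and 2 in the lists in the order given here, of 11, 18, 19, 11 and 10 tested, against 10.9% of all genes tested.

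Markers of other blood and glomerular cells were read beside these changes. With anti-GBM GN, 10.6% of all genes tested were called higher and 9.76% lower in 129S2SvPAs, and 4.78% and 2.31% in C57BL6J. Of 9 pan-leukocyte and lymphocyte markers on the array, 5 were tested and none was called higher with anti-GBM GN in either strain, while the B cell gene Ms4a1 was lower in C57BL6J (-0.46, adjusted p = 0.0278 in limma). The pan-leukocyte and lymphocyte markers' summed linear signal ran from 95.7 to 137 in 129S2SvPAs anti-GBM GN and from 130 to 253 in 129S2SvPAs controls, and from 238 to 441 in C57BL6J anti-GBM GN and from 255 to 411 in C57BL6J controls. The leukocyte phosphatase Ptprc (CD45) was lower in 129S2SvPAs than in C57BL6J with anti-GBM GN (-1.97, SE 0.35, adjusted p = 0.00537 in limma), the same direction as Ppbp and Gp9. Coro1a, an actin regulator of leukocytes, was also lower there (-2.31, SE 0.46, adjusted p = 0.0112 in limma), where 4.89% of all genes tested were called lower. The other tested markers of this list, Cd4, Cd8a and Ms4a1, went the other way by 0.12, 0.05 and 0.06 and were not called. The list median was 0.05, against 0.03 over all genes tested. The part of leukocytes in the strain difference was not tested.

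Of 11 neutrophil markers on the array 4 were tested, and Ltf was called higher in C57BL6J. Between diseased strains Ltf was lower in 129S2SvPAs (-0.997, adjusted p = 0.00876 in limma), as were Ppbp and Gp9, where 4.89% of all genes tested were called lower. S100a8, S100a9 and Csf3r were at -1.17, -0.70 and -0.03 there and were not called. In controls S100a8 (-2.23, adjusted p = 0.0204 in limma) and S100a9 (-2.48, adjusted p = 0.0198 in limma) were lower in 129S2SvPAs, where 5.11% of all genes tested were called lower. Ltf and Csf3r were at -0.17 and 0.02 in controls. Of the platelet genes Pf4 and Ppbp were also lower in 129S2SvPAs controls, without a call, and Gp9 was at 0.04. The part of neutrophils in the strain differences of the platelet genes was not tested. The neutrophil markers' summed signal ran from 116 to 204 in 129S2SvPAs anti-GBM GN and from 91.0 to 101 in 129S2SvPAs controls, and from 168 to 431 in C57BL6J anti-GBM GN and from 161 to 443 in C57BL6J controls. The defining granule genes Mpo, Elane, Ngp and Camp lay near the floor, with group means of 2.18 to 2.31. Of 12 monocyte and macrophage markers 7 were tested and 1, Cd14, was called higher in both strains. Of 8 erythrocyte markers 5 were tested and none was called higher, while Slc4a1 was lower in 129S2SvPAs (-1.78, adjusted p = 0.0404 in limma) and Klf1 in C57BL6J (-1.52, adjusted p = 0.0181 in limma). Their summed signal ran from 88.8 to 127 in 129S2SvPAs anti-GBM GN and from 122 to 191 in 129S2SvPAs controls, and from 125 to 186 in C57BL6J anti-GBM GN and from 167 to 230 in C57BL6J controls. The 8 platelet genes summed to 308 to 397 in 129S2SvPAs anti-GBM GN, against 61.6 to 91.0 in 129S2SvPAs controls, and to 459 to 1010 in C57BL6J anti-GBM GN, against 67.0 to 101 in C57BL6J controls. None of the 7 mast cell and basophil markers was tested, since none exceeded the table median on 3 arrays.

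Markers of resident cells moved with disease as well, and their part in the platelet values was not tested. Their counts stand against 10.6% of all genes tested called higher and 9.76% lower in 129S2SvPAs, and 4.78% and 2.31% in C57BL6J. The endothelial marker Esam and the mesangial marker Myl9 were also on platelet lists, and the podocyte marker Podxl on the list of ligands and receptors. Of 12 endothelial markers 6 were called higher and 1 lower in 129S2SvPAs, and 1 higher and 1 lower in C57BL6J, with summed signals of 8510 to 11300 in 129S2SvPAs anti-GBM GN and 3400 to 10400 in 129S2SvPAs controls. In C57BL6J these sums were 10000 to 17100 with anti-GBM GN and 10200 to 16500 in controls. Of 9 mesangial markers 5 were called higher in each strain, with sums of 3470 to 4110 in 129S2SvPAs anti-GBM GN, 880 to 1210 in 129S2SvPAs controls, 4750 to 6970 in C57BL6J anti-GBM GN and 960 to 1690 in C57BL6J controls. Among 10 proximal tubule markers 6 were called lower in 129S2SvPAs and 1 in C57BL6J. Of 8 podocyte markers 4 were called lower in 129S2SvPAs than in C57BL6J with disease, against 4.89% of all genes tested, and all 8 in controls, against 5.11%.

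Genes whose pattern over the 12 arrays was most like that of Pf4 were ranked by the root mean square difference after each gene's own mean was removed. The 5 closest were Ch25h (0.50 log2 units), Tagln (0.56), Jam2 (0.64), Apold1 (0.67) and Ankrd1 (0.72). Among the platelet genes Itgb3 came 25th (1.05), Ppbp 47th (1.18), Clec1b 585th (1.95), Gp9 637th (1.97) and Itga2b 2682nd (2.30) in that order. Ch25h, the cholesterol 25-hydroxylase, had group means of 7.46 in 129S2SvPAs anti-GBM GN, 3.16 in 129S2SvPAs controls, 8.93 in C57BL6J anti-GBM GN and 3.52 in C57BL6J controls. Beside it Pf4 had 7.73, 2.87, 8.45 and 4.14 in the same groups. None of these 5 genes was on any list of platelet genes used here, and Tagln was on the mesangial list.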

How the data were processed

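Glomerular RNA of 12 mice was measured on Affymetrix mouse arrays, 1 array per mouse, after biotin labelling per the labels' protocols. The deposited values were log2 probe set signals made by the authors. MAS5 and GCRMA are named in the submitters' processing notes, without version or role, and the values themselves show the log2 scale. Samples were grouped by title and treatment. A free-text description repeats the disease term for controls, and it was not used. Scan dates and scanner files were not used here, so no batch was tested. Probe sequences were not analysed.

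Of 45037 probe sets 34957 had 1 gene symbol in the platform annotation, 920 had several and 9160 had none. For each of 18201 genes the probe set of highest mean was kept. Genes above the table median on at least 3 arrays entered limma (version 3.58.1, R 4.3.3), with 1 mean per group over all 12 arrays, 6 contrasts, 10.7 total degrees of freedom and Benjamini-Hochberg adjustment over 11921 genes. The fit was tested on simulated data. P-values set a group difference against the spread between arrays within the groups, 1 array per mouse. The main fit did not use any pairing of same-numbered arrays.

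The 8 genes and all lists were chosen with earlier results of these data known. Named genes were the 8 genes, up to 4 genes of each list with the lowest p in the average response, a fixed set of further genes, and the 5 genes most like Pf4. Plek, Cxcl12, Mpo, Elane, Ngp and Camp fall outside this rule and were chosen after their values were seen, and a gene of the fixed set is not reported here. Same-numbered replicates were checked for pairing: all 3 pairs correlated above 0.1 between C57BL6J anti-GBM GN and C57BL6J controls (0.208 to 0.33) and between the control groups (0.239 to 0.284), and these numbers were taken to pair arrays by the data, not by the labels. The other group pairs did not meet this (lowest -0.38), and every correlation below 0 involved 129S2SvPAs anti-GBM GN. Alternatives were quantile normalization, equal array medians, other probe set rules, testing all genes, a stricter filter (75th percentile), a floor at the table median, array weights, another variance prior, fits without the other groups, a minimum absolute log2 change of 1, the replicate block, and leaving out each array. Promoter windows came from RefSeq (GRCm38.p6), which held 7 of the 8 genes and none for Itgb3.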

Additional observations from a re-analysis of the deposited data

Results flagged for a closer look

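Cd14, a lipopolysaccharide co-receptor of monocytes and other cells, was on the list of monocyte and macrophage markers and differed between the strains in its response. Its rise with anti-GBM GN was 4.16 in 129S2SvPAs and 1.82 in C57BL6J on the log2 scale, and the difference between the responses was 2.34 (SE 0.34, adjusted p = 0.0193 in limma). Of the 7 tested markers on that list Cd14 alone was called in this comparison, where 0.562% of all genes tested were. The list median was -0.44, against 0.03 over all genes tested. Lyz2, Csf1r, Cd68 and Adgre1 went the other way, at -2.14, -1.24, -0.94 and -0.44, while C1qb and Mrc1 were at 0.36 and 0.75. All 3 diseased arrays exceeded all 3 controls in each strain, as they did in 7.88% of all genes tested. Cd14 was at 8.77, 8.91 and 8.90 in 129S2SvPAs anti-GBM GN, against 4.77, 5.03 and 4.31 in 129S2SvPAs controls. In C57BL6J it was at 6.85, 6.86 and 6.24 with anti-GBM GN, against 4.71, 5.25 and 4.54 in controls.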

How the results depend on the processing

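Of 840 values of single genes under the alternatives, 804 were counted as unchanged, 14 lost a call and 21 gained one. Unchanged means the same direction and the same side of the threshold. The 804 include 6 values each of Gp5 and Treml1, which had no call to keep and whose differences could not change. Only Itga2b in C57BL6J, which was not called, changed sign, at -0.007 without replicate 1 of C57BL6J anti-GBM GN, in a range of -0.007 to 0.018 over the left-out arrays. The number of the 8 genes called was 3 in 129S2SvPAs, 4 in C57BL6J, 5 in the average, 0 in the difference between the responses, 2 between the diseased strains and 0 between the controls. With the stricter filter, which drops dim genes from the tests, it was 2 in C57BL6J, 2 in the average and 1 between the diseased strains. With array weights it was 5 in 129S2SvPAs, 2 in the difference between the responses and 1 between the controls. A floor at the table median gave 1 in the difference between the responses, and between the diseased strains the minimum change of 1 and the fit of only the groups compared gave 1 each. The cause was not tested. Leaving out single arrays gave 3 to 4 genes in 129S2SvPAs, 4 to 5 in C57BL6J, 4 to 5 in the average, 0 to 0 in the difference between the responses, 2 to 3 between the diseased strains and 0 to 1 between the controls, where the gained genes were Itga2b without replicate 3 of the 129S2SvPAs controls and Pf4 without replicate 3 of the C57BL6J controls. The fit with the replicate block called 3 genes in 129S2SvPAs, 5 in C57BL6J, 5 in the average, 0 in the difference between the responses, 3 between the diseased strains and 0 between the controls, adding Clec1b in C57BL6J (where same-numbered arrays deviated together) and Itgb3 between the diseased strains, and over all genes it called 33 in place of 67 in the difference between the responses. The fit of only the groups compared cannot be made for the average and the difference between the responses.

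Over all genes, calls ran from 1111 (minimum change) to 3830 (array weights) around 2424 in 129S2SvPAs, from 407 (without replicate 2 of C57BL6J anti-GBM GN) to 2021 (array weights) around 845 in C57BL6J, and from 744 (minimum change) to 4607 (all probe sets singly) around 3170 in the average. They ran from 15 (without replicate 2 of the 129S2SvPAs controls) to 286 (array weights) around 67 in the difference between the responses, from 551 (minimum change) to 2256 (array weights) around 999 between the diseased strains, and from 503 (without replicate 2 of the C57BL6J controls) to 1601 (array weights) around 1005 between the controls. Signals near the floor limit what can be said of Gp5, Treml1 and Gp9. They also limit the folds of Itgb3 and Ppbp in both strains and of Pf4 in 129S2SvPAs, where most or all controls lay below the table median. The nearly constant signal of Itga2b limits what can be said of that gene.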
